A study of Rattus norvegicus with 24 samples.

Results

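The genes followed here are 10 genes of the transforming growth factor beta (TGF-beta) pathway in the rat left ventricle: the ligand genes Tgfb1, Tgfb2, Tgfb3 and Gdf15, the receptor genes Tgfbr1 and Tgfbr2, the intracellular signal genes Smad3 and Smad7, and the follistatin-like genes Fstl1 and Fstl3. They were chosen by name, and all 10 had 1 probe each among the 22517 probes of the array. The symbol in the file matched for 9 of them, and Smad7 was found by its RefSeq accession, since the file carries its old name Madh7. After a filter that kept probes above background (detection p under 0.05) on at least 6 arrays, 10392 genes remained, 8 of the 10 among them. Tgfbr2 and Smad3 did not pass.

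The study set coronary ligation against a sham operation and normal chow against a chow rich in saturated fat, in 24 male Wistar rats of 300 to 350 g. Each of the 4 groups, sham on chow, sham on saturated fat, ligated on chow and ligated on saturated fat, held 6 animals with 1 array per animal. Ligation tied the left main coronary artery, and the diet began directly after surgery. The fat chow took 60% of its calories from fat, with palmitic acid at 25%, stearic acid at 33% and oleic acid at 33%. All work on the animals, kept with day and night reversed, fell 3 to 6 hours after dark began. The feeding time, and whether the ventricle samples contained scar or only surviving muscle, are not stated.

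TGF-beta ligands are secreted in a latent form bound in the matrix, and once freed they bring together a type II and a type I receptor. The receptor complex phosphorylates Smad3, which enters the nucleus and raises genes of matrix and repair, among them that of Smad7, an inhibitor that shuts the receptor down again. After myocardial infarction this pathway is known for the switch from inflammation to scar formation. Follistatin-like proteins are secreted glycoproteins: the one from Fstl3 binds and blocks activins and related ligands, and the one from Fstl1 has been described as a secreted cardiac factor. GDF15 is a distant ligand of the family, known as a stress-induced hormone that acts through a receptor in the hindbrain.

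Promoter sequence is shown for 3 members that were higher after ligation, since Smad3 binds the short DNA core AGAC, which reads GTCT on the other strand. Each line gives the 250 bases before the annotated start in the RefSeq annotation of GRCr8, 5′ to 3′ in the direction of the gene, with the Smad cores in capitals.
Fstl3: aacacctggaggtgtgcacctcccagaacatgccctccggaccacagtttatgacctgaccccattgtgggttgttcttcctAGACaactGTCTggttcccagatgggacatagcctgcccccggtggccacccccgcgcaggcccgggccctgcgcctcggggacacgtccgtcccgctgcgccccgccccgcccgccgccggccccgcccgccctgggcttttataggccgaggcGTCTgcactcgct
Fstl1: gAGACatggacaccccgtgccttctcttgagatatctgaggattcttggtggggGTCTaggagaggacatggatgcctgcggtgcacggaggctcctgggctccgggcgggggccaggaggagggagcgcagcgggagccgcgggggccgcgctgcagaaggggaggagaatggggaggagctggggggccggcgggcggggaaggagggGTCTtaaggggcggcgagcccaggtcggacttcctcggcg
Smad7: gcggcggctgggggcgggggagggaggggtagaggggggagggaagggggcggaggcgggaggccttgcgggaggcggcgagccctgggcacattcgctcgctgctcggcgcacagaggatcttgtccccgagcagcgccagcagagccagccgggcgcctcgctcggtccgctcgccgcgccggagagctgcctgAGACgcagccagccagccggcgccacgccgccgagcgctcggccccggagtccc
The Fstl3 window lies at chr7:10579845-10580094 on the minus strand, the Fstl1 window at chr11:76454054-76454303 on the minus strand and the Smad7 window at chr18:71263258-71263507 on the plus strand. The Fstl3 window held 3 cores, of which AGAC and GTCT stand 4 bases apart, and the Fstl1 window also held 3. The Smad7 window held 1. Among 33469 rat promoter windows of the same length, 84.0% held at least 1 core and 29.1% held at least 3, so these counts do not set the members apart. The palindrome GTCTAGAC was in 0.173% of windows and in none of the members' windows. The Fstl3 window also held 4 copies of the GC box GGGCGG, counted on both strands, which 30.5% of windows contained, and 1 match to TATAAA, on the strand opposite to the gene, where 12.9% of windows held a match on either strand.

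The arrays detected 8884 to 10475 probes each and correlated at 0.969 to 0.992 within groups. They split into 12 arrays with a high background (median signal of undetected probes 150.7 to 169.2) and 12 with a low one (85.1 to 98.2), a batch that was read from the values, as no chip or date is given for any array. Of each 6 animals, 2 in sham chow, 3 in sham fat, 2 in ligated chow and 5 in ligated fat were on high-background arrays. All 12 cardiomyocyte markers on the array were detected on all 24 arrays, and their mean level of 13.64 to 13.84 on the log2 scale overlapped in the 4 groups. Of these 12 markers, 8 averaged 15.41 to 15.93, close to the highest value of 15.97, so their level shows that the tissue is present and says little about change. Levels below are log2 normalised intensities, which rank animals for 1 probe and do not compare one gene with another.

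Ligation raised 5 of the 8 tested members when its effect was averaged over the diets, and lowered none. These were Fstl3, Gdf15, Fstl1, Tgfb2 and Smad7. Gdf15 was detected on 11 of 12 ligated and 3 of 12 sham arrays and so entered the test through the groups where it is high, which makes its calls a description and no support for the count. On chow alone 1 of 8 rose, Fstl3, and on saturated fat 2 of 8, Fstl3 and Gdf15. The diet comparisons changed none of the 8. A change was called at limma's Benjamini-Hochberg adjusted p under 0.05 over all 10392 genes, with n = 6 per group. At that threshold the shares of all genes called higher and lower were 2.05% and 1.09% for ligation averaged over diets, 0.356% and 0.115% for ligation on chow, and 0.606% and 0.279% for ligation on saturated fat. The averaged comparison uses the same animals as the other 2 and is no separate evidence. Since this is whole tissue, more cells of a type and more RNA per cell cannot be told apart.

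**Figure D1:**
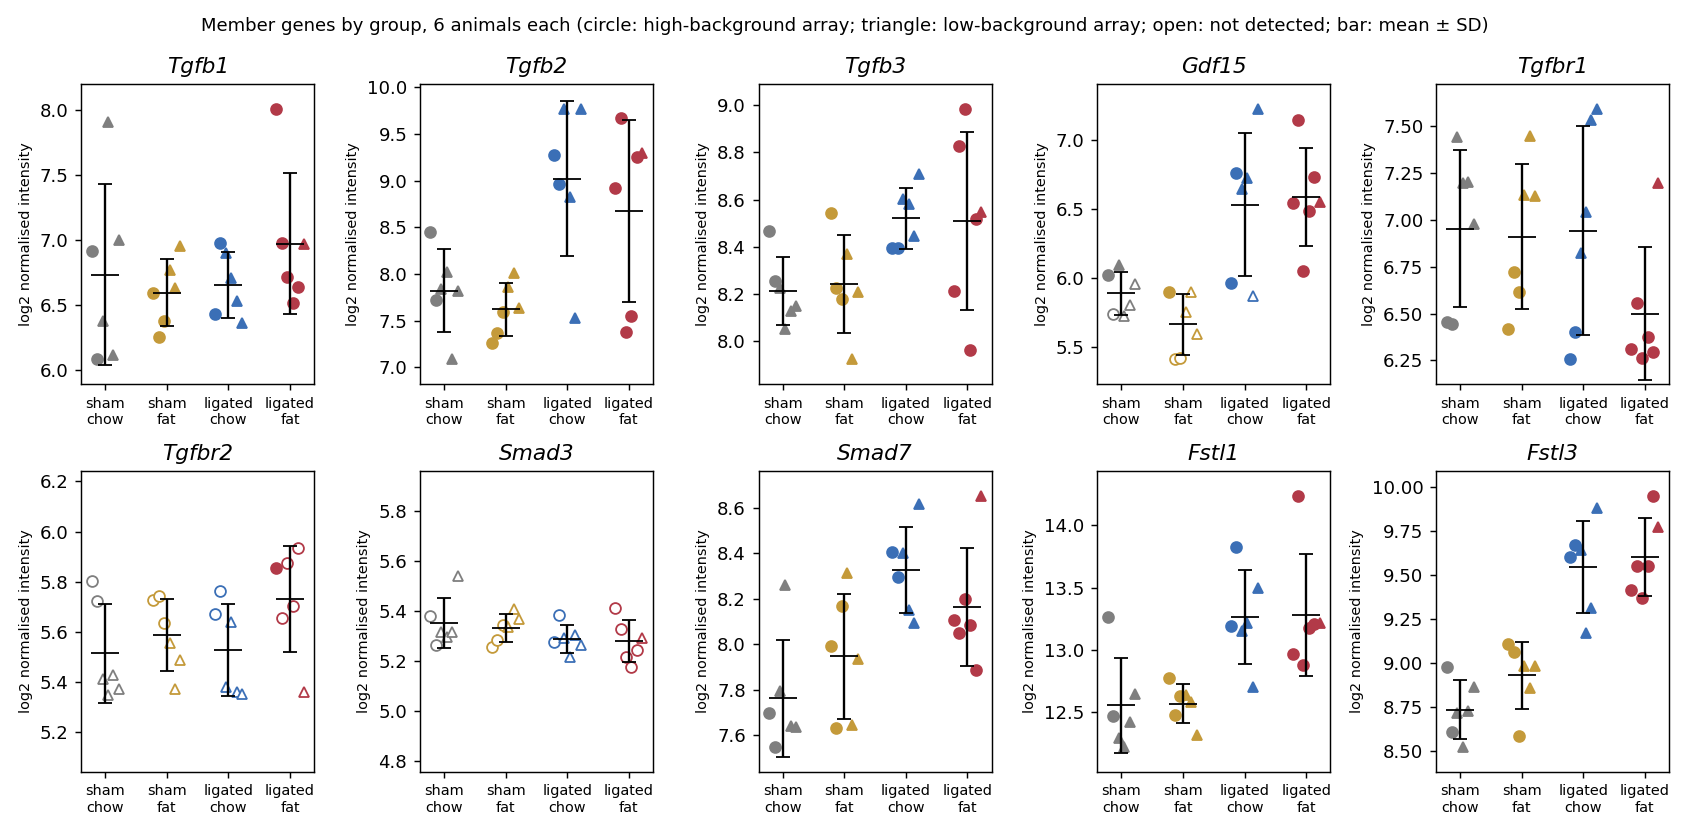
Log2 normalised intensity of the 10 members in each animal (points) with mean ± SD (bars), by group of 6, on axes that differ between genes; circles are high-background arrays, triangles low-background arrays, and open symbols were not detected. All 12 ligated animals lie above all 12 sham animals for Fstl3, while Tgfb2 has 3 ligated animals within the sham range.

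Of the ligands, Tgfb2 had the largest difference among the members. Its log2 level ran from 7.09 through a median of 7.83 to 8.45 in sham chow and from 7.27 through 7.61 to 8.01 in sham fat. In ligated chow it ran from 7.53 through 9.12 to 9.77 and in ligated fat from 7.38 through 9.08 to 9.67. The ligated animals were not alike: 9 of 12 lay above every sham animal on their diet, while chow animal 21 (7.53) and saturated fat animals 18 (7.38) and 25 (7.55) lay within the sham range, so the groups overlapped. The averaged difference was 1.13 (SE 0.26, 2.18-fold, 95% interval 1.51 to 3.15, adjusted p = 0.0126), with 1.20 on chow (adjusted p = 0.158) and 1.05 on saturated fat (adjusted p = 0.208). The order of the group means was sham fat (7.62 ± 0.28, SD, n = 6), sham chow (7.82 ± 0.44), ligated fat (8.68 ± 0.97) and ligated chow (9.02 ± 0.83), and neighbours on the same side of surgery differed by less than their SD. Without chow animal 21 the difference on chow passed (adjusted p = 0.0236). With median scaling in place of quantile normalisation the averaged value was 1.16 (adjusted p = 0.0647).

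Gdf15 was near the detection limit in sham hearts and above it in most ligated hearts. It was detected in 2 of 6 sham chow, 1 of 6 sham fat, 5 of 6 ligated chow and 6 of 6 ligated fat animals, so it passed the filter through the ligated groups and its sham level is largely a bound. Levels ran from 5.73 through a median of 5.88 to 6.10 in sham chow and from 5.41 through 5.67 to 5.90 in sham fat. They ran from 5.87 through 6.69 to 7.23 in ligated chow and from 6.05 through 6.55 to 7.15 in ligated fat. On saturated fat the measured values did not overlap, though 5 of the 6 sham values there were not above background, whereas on chow animals 21 (5.87) and 38 (5.97) lay within the sham range. Each sham array was then set to the lowest signal of its probes above background, or to its own value where higher. Against these, the mean of Gdf15 was 1.55-fold higher after ligation on saturated fat and 1.43-fold on chow. Both are estimates without an interval, and ligated chow animal 21, itself not detected, kept its measured value. The fitted difference between the measured means was 0.92 on saturated fat (SE 0.19, adjusted p = 0.0132), 0.64 on chow (adjusted p = 0.14) and 0.78 averaged (adjusted p = 0.00103). With a clock-gene index added to the model the value on saturated fat was 0.80 (adjusted p = 0.0682), and without animal 21 the value on chow was 0.77 (adjusted p = 0.03). The mean of that index was -0.74 in sham chow, 0.90 in sham fat, 0.61 in ligated chow and -0.77 in ligated fat, and its part in the result was not tested beyond this covariate.

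Tgfb1, the ligand most often linked to cardiac scar formation, did not pass the test for surgery. Its group means were 6.73 ± 0.69 in sham chow, 6.59 ± 0.25 in sham fat, 6.65 ± 0.25 in ligated chow and 6.97 ± 0.54 in ligated fat (SD, n = 6), with overlapping ranges throughout. The averaged difference was 0.15, with a 95% interval from -0.22 to 0.52 (adjusted p = 0.776). Tgfb1 was detected in every animal, but some values lay near the detection limit. In sham chow animal 40 it was at 6.08, where the lowest detected probe was at 6.01. Tgfb3, the third isoform, had means of 8.21 ± 0.14, 8.24 ± 0.21, 8.52 ± 0.13 and 8.51 ± 0.38 in the same order, and 10 of 12 ligated values exceeded the sham mean of the same diet. Its averaged difference of 0.29 (SE 0.095, 95% interval 0.09 to 0.48, adjusted p = 0.107) missed the threshold. Without ligated fat animal 25 it was 0.34 (adjusted p = 0.0262).

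The receptors gave no called difference. Tgfbr1 encodes the type I receptor kinase, and its mean level was 6.95 ± 0.42 in sham chow, 6.91 ± 0.39 in sham fat, 6.94 ± 0.56 in ligated chow and 6.50 ± 0.36 in ligated fat (SD, n = 6). This probe followed the background batch, at 6.43 ± 0.15 on the 12 high-background arrays and 7.23 ± 0.23 on the 12 low-background ones. The difference for ligation on saturated fat was -0.41 (adjusted p = 0.506) and -0.15 with the batch as a block (adjusted p = 0.707), with -0.23 within high-background and -0.04 within low-background arrays. Tgfbr2, the type II receptor that binds the ligand first, was detected on 1 of 24 arrays, and its values of 5.35 to 5.94 are not well above background. No fold is given for it.

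Among the Smads, the inhibitor Smad7 was higher after ligation and the signal transducer Smad3 could not be measured. Smad3 was detected on 0 of 24 arrays, with a smallest detection p of 0.314, and is not well above background. Smad7 ran from 7.55 through a median of 7.67 to 8.26 in sham chow and from 7.63 through 7.96 to 8.31 in sham fat. It ran from 8.09 through 8.35 to 8.62 in ligated chow and from 7.89 through 8.10 to 8.65 in ligated fat. On chow all 6 ligated values exceeded the mean of the sham group and on saturated fat 5 of 6 did, but the groups overlapped on both diets, and sham chow animal 7 (8.26) stood within the ligated range. The averaged difference was 0.39 (SE 0.099, 1.31-fold, 95% interval 1.14 to 1.51, adjusted p = 0.0262), from 0.57 on chow (adjusted p = 0.0693) and 0.22 on saturated fat (adjusted p = 0.579). The interaction of surgery and diet was -0.35 with an interval from -0.76 to 0.06 (adjusted p = 0.881), so the diets were not shown to differ. The averaged call was lost without sham fat animal 35 (adjusted p = 0.0523) or 12 (adjusted p = 0.0525), and with median scaling (0.43, adjusted p = 0.213). On chow the value passed without sham chow animal 7 (0.67, adjusted p = 0.0247), ligated chow animal 21 (0.61, adjusted p = 0.0391) or ligated fat animal 37 (0.57, adjusted p = 0.0441).

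Fstl3 gave the clearest separation of the members. Its level ran from 8.53 through a median of 8.72 to 8.98 in sham chow and from 8.58 through 8.99 to 9.11 in sham fat. After ligation it ran from 9.17 through 9.62 to 9.88 on chow and from 9.37 through 9.56 to 9.95 on saturated fat. No ligated animal on either diet reached down to any sham animal. The difference was 0.81 on chow (SE 0.12, 1.75-fold, 95% interval 1.47 to 2.09, adjusted p = 0.00218) and 0.67 on saturated fat (SE 0.12, 1.59-fold, 1.34 to 1.90, adjusted p = 0.006). By p it ranked 2 among 10392 genes on chow and 21 on saturated fat. Averaged over diets it was 0.74 (SE 0.087, adjusted p = 1.34e-05; exact permutation p = 2.34e-06 with surgery permuted within each diet, two-sided, the smallest this can give). The call held on each diet with each of the 24 arrays left out in turn.

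Non-overlapping groups were also rare among all genes: every ligated animal was above every sham animal for 0.645% of genes on chow and 0.789% on saturated fat. Fstl3 met this on both diets and Fstl1 on saturated fat. Within the high-background arrays Fstl3 differed by 0.75 averaged over diets (adjusted p = 0.0762). Within the low-background arrays, which held 1 ligated fat animal, it differed by 0.81. With median scaling the value on chow was 0.78 (adjusted p = 0.309) and on saturated fat 0.77 (adjusted p = 0.19), and averaged it was 0.77 (adjusted p = 0.00711).

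Fstl1 rose after ligation averaged over diets, with the same estimate on both. Its level ran from 12.22 through a median of 12.45 to 13.27 in sham chow and from 12.32 through 12.61 to 12.77 in sham fat. It ran from 12.70 through 13.21 to 13.82 in ligated chow and from 12.88 through 13.19 to 14.23 in ligated fat. The saturated fat groups did not overlap, while on chow sham animal 15 (13.27) reached into the ligated range and ligated animal 21 (12.70) was the lowest of its group. The averaged difference was 0.71 (SE 0.14, 1.64-fold, adjusted p = 0.00423), with 0.71 on each diet (adjusted p = 0.124 on chow and 0.0981 on saturated fat). The interaction was 0.00 with an interval from -0.58 to 0.58. On chow it passed without sham chow animal 15 (adjusted p = 0.0384), ligated chow animal 21 (0.0429) or ligated fat animal 28 (0.038), and on saturated fat without ligated fat animal 18 (0.0491). With median scaling the averaged value was 0.71 (adjusted p = 0.138).

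**Figure D2:**
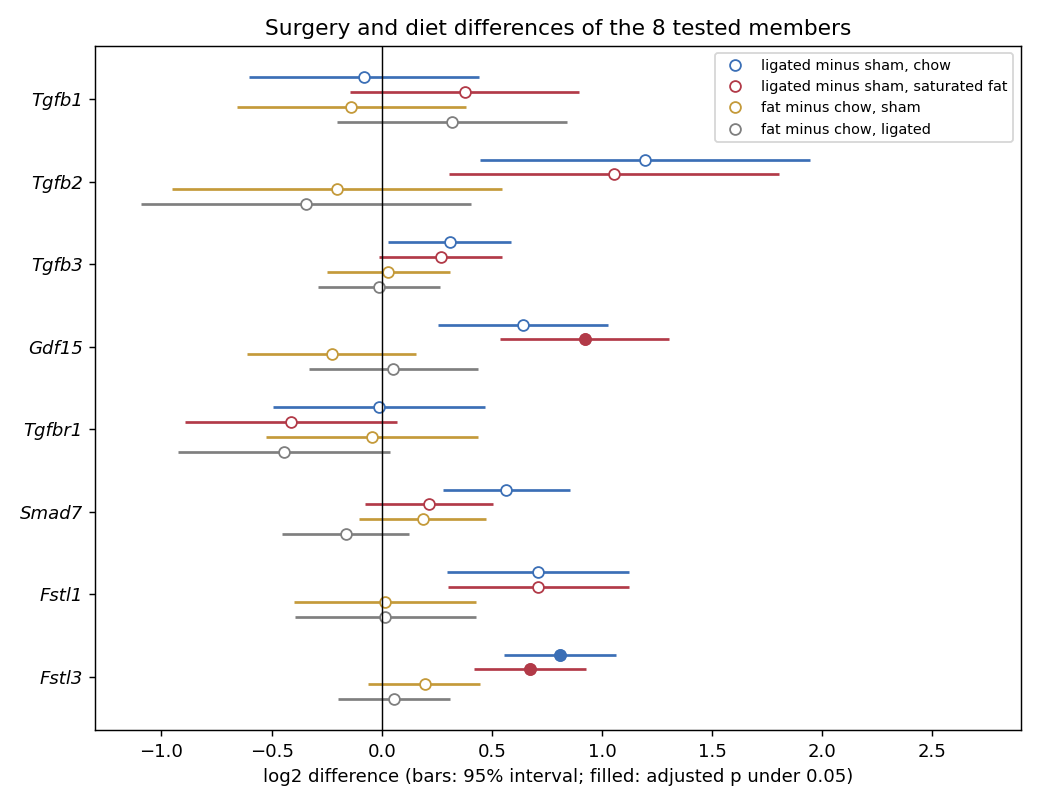
Log2 differences (points) with 95% intervals (bars) for the 8 tested members, ligated minus sham on each diet and saturated fat minus chow in each surgery; filled points have an adjusted p under 0.05. The filled points are Fstl3 on both diets and Gdf15 on saturated fat, and all diet intervals include 0.

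Values within each background batch kept the direction of the called averaged differences. The batches are small checks: ligated fat had 1 low-background array, and sham chow and ligated chow had 2 high-background arrays each. Gdf15 differed by 0.75 within high-background and 0.76 within low-background arrays, Fstl1 by 0.65 and 0.73, Tgfb2 by 1.09 and 1.37, and Smad7 by 0.43 and 0.59. None of these 8 within-batch values passed the test, with limma's adjusted p between 0.095 and 0.538.

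Saturated fat gave no called difference for any member. In sham hearts the largest differences were Gdf15 at -0.23 (95% interval -0.61 to 0.16, adjusted p = 0.975) and Tgfb2 at -0.20 (-0.95 to 0.55, adjusted p = 0.999). Gdf15 was detected in 2 of 6 sham chow and 1 of 6 sham fat animals, so its value there compares mostly background. In ligated hearts the largest differences were Tgfbr1 at -0.44 (-0.92 to 0.04, adjusted p = 0.527) and Tgfb2 at -0.34 (-1.09 to 0.40, adjusted p = 0.725). Ligated fat and ligated chow differ in their background batches, and with the batch as a block Tgfbr1 was at -0.05, Tgfb2 at -0.29 and Tgfb1, at 0.32 without the block, at 0.41 (adjusted p = 0.996 for each with the block). Within high-background arrays Tgfbr1 differed by 0.03 and within low-background arrays by -0.05. By limma 0 of 8 members were called, and 0 of 8 had an unadjusted p under 0.05, in the diet comparisons and in the interaction. Over all genes 0.0192% were called for saturated fat in sham hearts, 0.00962% in ligated hearts, 0.0577% averaged over surgeries and 0% for the interaction. The intervals leave room for moderate diet differences and do not show that the diets act alike.

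The wider pathway was followed in 6 lists, and 66 genes of them that are no members were tested. Of these 66, 9 rose after ligation averaged over diets and 0 fell, 49 had a higher mean after ligation, and the median difference was 0.12. Over all genes 46.1% had a higher mean, 2.05% were called higher and the median was -0.01. On chow 3 rose and on saturated fat 4, with 0 falling in either. The shares of all genes called higher there were 0.356% and 0.606%. Of the 4 on saturated fat, Ltbp2 (adjusted p = 0.0692), Bgn (0.0842) and Ccn2 (0.0805) lost the call with the background batch as a block, and Tgm2 kept it (0.00166). The counts by list follow, members included, and differences between lists were not tested. Of the ligands 2 of 10 were called higher (median 0.22), of the receptors 0 of 8 (median -0.03) and of the Smads and their regulators 2 of 12 (median 0.04). The called ligands were Tgfb2 and Gdf15. Gdf15 entered the test through the ligated groups, so its call is no support for the ligand count. Of the follistatin family and other binders 4 of 9 were called higher (median 0.18), of the latent TGF-beta binding and activation genes 3 of 11 (median 0.26), and of the genes that TGF-beta raises 3 of 24 (median 0.24).

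**Figure D3:**
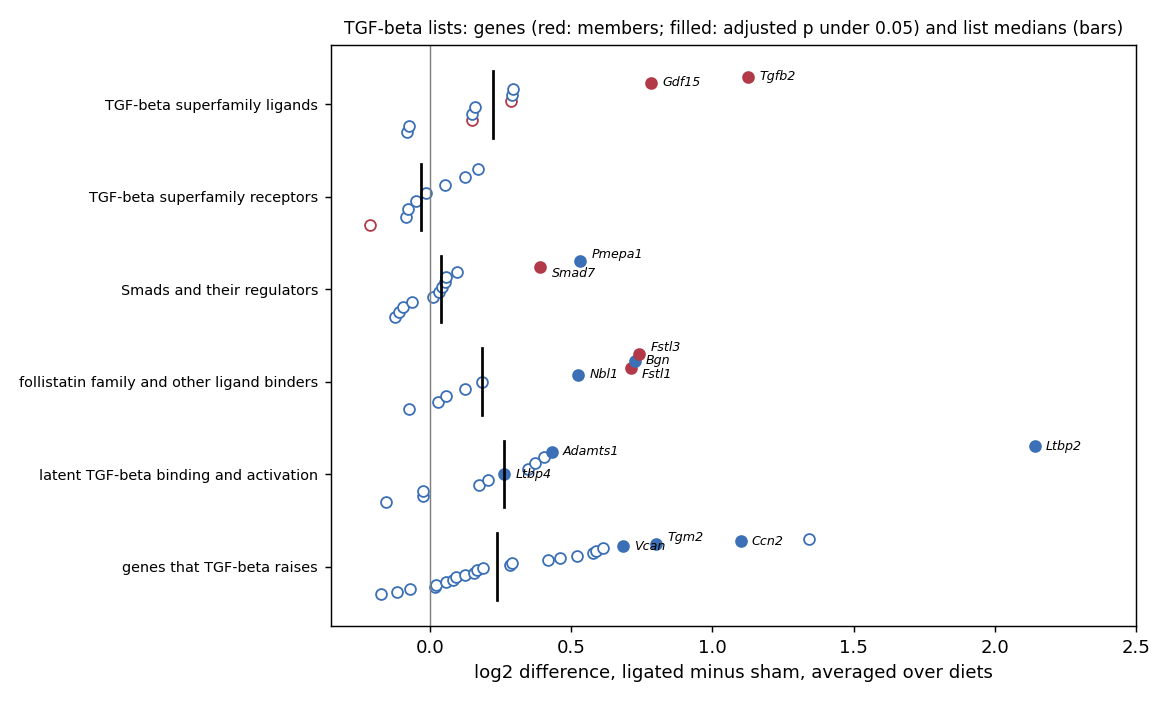
Ligated minus sham, averaged over diets, on the log2 scale for each tested gene of the 6 lists (red: members; blue: other genes; filled: adjusted p under 0.05) with the list medians as bars. Filled points stand only to the right of 0, and the receptor list has none.

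The largest called difference was in the latent binding list. It was that of Ltbp2, which was not detected on all 24 arrays, so some of its values were not above background. The counts above include it. Its detection by group is not given here, so its calls are a description and no support for those counts. Ltbp2, a matrix protein related to the latent TGF-beta binding proteins, rose by 2.14 averaged over diets (SE 0.41, adjusted p = 0.0028), with 1.80 on chow (adjusted p = 0.194) and 2.48 on saturated fat (adjusted p = 0.0383, or 0.0692 with the batch as a block and 0.172 with the clock index). Ltbp4, which tethers latent TGF-beta, rose by 0.48 on chow (SE 0.083, adjusted p = 0.00432) and was at 0.05 on saturated fat (adjusted p = 0.875). Adamts1, a matrix protease, rose by 0.78 on chow (SE 0.15, adjusted p = 0.0117) and was at 0.09 on saturated fat (adjusted p = 0.871). The interaction was -0.43 for Ltbp4 and -0.69 for Adamts1, both at an adjusted p of 0.878, so a difference between the diets was not shown.

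Among genes that TGF-beta raises, the crosslinking enzyme gene Tgm2 rose on both diets, by 0.80 on chow (adjusted p = 0.00218) and 0.80 on saturated fat (adjusted p = 0.00181). Ccn2, the connective tissue growth factor gene, rose by 1.10 averaged over diets (adjusted p = 0.0013), and Vcan, a large matrix proteoglycan gene, by 0.68 (adjusted p = 0.00573). Pmepa1, an inhibitor of TGF-beta signalling induced by it, rose by 0.53 (adjusted p = 0.00604). Of the ligand binders, the small proteoglycan gene Bgn rose by 0.73 (adjusted p = 0.00492) and the BMP antagonist gene Nbl1 by 0.53 (adjusted p = 0.00742). Bambi, a decoy receptor and the receptor-list gene with the smallest p, was at 0.17 (adjusted p = 0.55).

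Some fibroblast and macrophage markers were higher after ligation as well. Averaged over diets, 12 of 12 tested fibroblast markers had a higher mean after ligation, with 2 called and a median of 0.31, and 10 of 10 macrophage markers did, with 3 called and a median of 0.44, against 46.1% of all genes with a higher mean and 2.05% called higher. The mean fibroblast marker level ran from 10.34 to 11.18 in sham chow, 10.28 to 10.64 in sham fat, 10.52 to 11.13 in ligated chow and 10.63 to 11.36 in ligated fat. The macrophage level ran from 8.11 to 8.86, 7.97 to 8.65, 8.17 to 9.20 and 8.41 to 9.25 in the same order. Col1a1, Col1a2, Col3a1 and Dcn stand in both the fibroblast list and a pathway list. Of the cardiomyocyte markers 3 of 12 were higher (median -0.05), with 0 called. The remaining lists had 6 of 6 endothelial, 3 of 5 smooth muscle and pericyte, 2 of 6 lymphocyte, 3 of 5 erythroid, 1 of 3 adipocyte and 2 of 2 atrial markers higher, with 1 endothelial and 1 atrial gene called. Of the 12 tested fibroblast markers 11 were detected on all 24 arrays, and of the 10 tested macrophage markers 7. The counts and mean levels of these 2 lists therefore include markers that were not above background on every array. The called fibroblast marker Pi16 (1.18 averaged over diets, limma's adjusted p = 0.00151) was such a marker. The defining adipocyte marker Adipoq and the lymphocyte marker Cd3e were also detected on fewer than 24 arrays. How far the marker shifts account for the members' differences was not tested.

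Between animals of the same group, some members followed the fibroblast level and others were not shown to. These relations were looked at after the data were seen, over 24 relations of the 8 members with 3 marker lists, on values centred on the group means (24 arrays, permutation within groups, two-sided, adjusted over the 24). Tgfb2 correlated with the mean fibroblast marker level at r = 0.792 (rho = 0.717, permutation p = 3e-05, adjusted p = 0.00072), Fstl1 at r = 0.827 (rho = 0.719, permutation p = 0.00029, adjusted p = 0.00232) and Gdf15 at r = 0.600 (rho = 0.533, permutation p = 0.00137, adjusted p = 0.00822). Without the 2 arrays farthest from the median marker level, r was 0.836, 0.613 and 0.597. Within high-background arrays it was 0.827, 0.881 and 0.693, and within low-background arrays 0.843, 0.766 and 0.820. These within-batch values were not tested, and the low-background arrays held 1 ligated fat animal. Gdf15 was detected on 3 of 12 sham arrays, so its deviations in sham animals are largely background. Its correlation is a description only.

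Fstl3, which separated surgery best, correlated with the fibroblast level at r = 0.393 (rho = 0.390, permutation p = 0.072, adjusted p = 0.203), and Smad7 at r = 0.181 (rho = 0.223, permutation p = 0.429, adjusted p = 0.689). The macrophage level correlated with Fstl1 at r = 0.754 (rho = 0.777, permutation p = 0.00026, adjusted p = 0.00232) and with Tgfb2 at r = 0.620 (permutation p = 0.00475, adjusted p = 0.0228), a relation that missed the threshold by Spearman correlation (rho = 0.453, adjusted permutation p = 0.122). Without the 2 farthest arrays these were 0.762 and 0.606. Fstl3 and the macrophage level gave r = 0.498 (adjusted p = 0.1) and rho = 0.581 (adjusted permutation p = 0.0369), so that relation depends on the measure. No member passed against the cardiomyocyte level, a mean dominated by probes near the top of the scale. Whether the correlations differ between members was not tested.

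**Figure D4:**
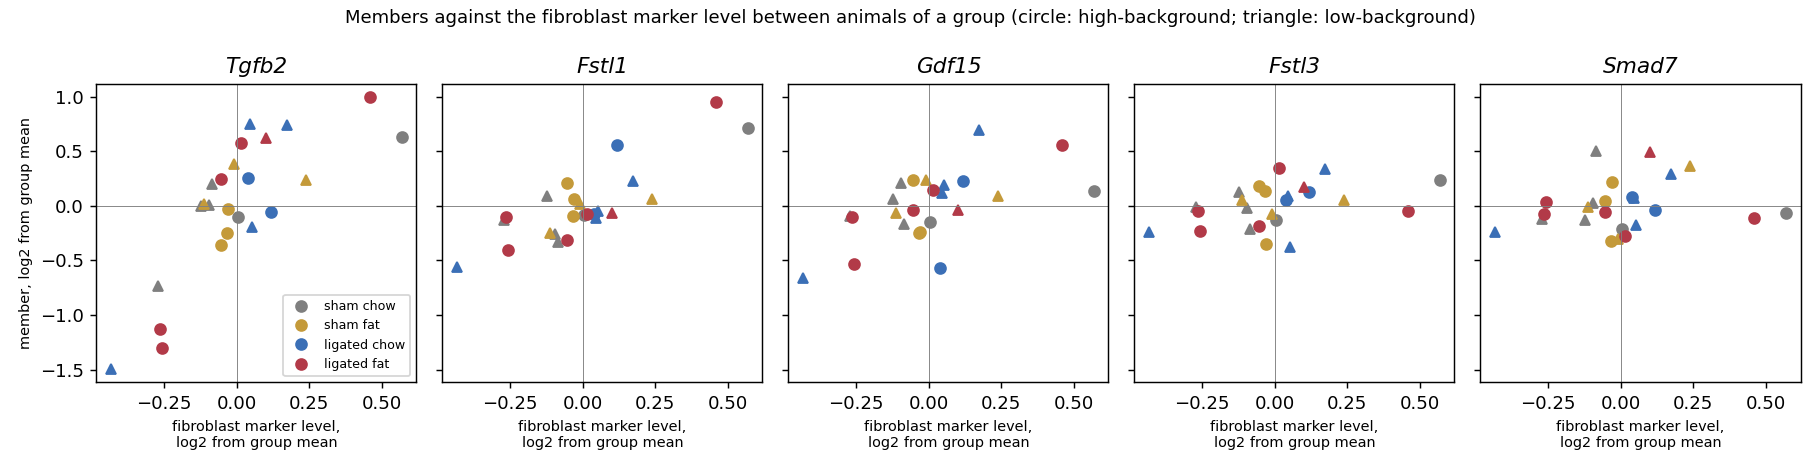
Deviation of 5 members from their group mean (vertical, log2) against the deviation of the mean fibroblast marker level (horizontal, log2), 1 point per animal, coloured by group, with circles for high-background and triangles for low-background arrays. Tgfb2 and Fstl1 run along a slope, with r = 0.792 and 0.827, while Smad7 scatters, with r = 0.181.

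The members themselves were compared in 28 pairs in the same way. By Pearson correlation 0 of 28 pairs passed after adjustment, and 3 had an unadjusted permutation p under 0.05. The highest was Fstl1 with Gdf15 at r = 0.652 (permutation p = 0.00213, adjusted p = 0.0596), which passed by Spearman correlation (rho = 0.642, adjusted permutation p = 0.0319) and with group and batch means removed (r = 0.778, adjusted permutation p = 0.0014). Within high-background arrays that r was 0.846 and within low-background arrays 0.853. Values within a batch were not tested, and the 1 low-background ligated fat array adds nothing once centred on its group mean. Tgfb2 with Gdf15 followed at r = 0.643 (adjusted permutation p = 0.0685, rho = 0.496), with 0.590 and 0.808 within the batches. Both pairs hold Gdf15, which was detected on 3 of 12 sham arrays, so they are descriptions only.

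For each called member the 5 genes most like it were taken by Pearson correlation over all 24 arrays, which share the surgery and diet groups and the background batches. For Fstl1 they were Bgn (r = 0.967), Col8a1 (0.932), Cadm3 (0.915), Pi16 (0.914) and Ltbp2 (0.895). With group means removed, Bgn still stood at 0.951. For Tgfb2 they were Prss23 (0.929), Fbln1 (0.904), Col14a1 (0.892), Neo1 (0.881) and Csrp2 (0.876), at 0.795 to 0.897 with group means removed. For Gdf15, not above background on most sham arrays, they were Trh (0.895), Ltbp2 (0.875), Pmepa1 (0.872), Mfap4 (0.869) and Thbs4 (0.868). For Fstl3 they were Ecm1 (0.881), Nppa (0.872), Csrp2 (0.871), Cacna1g (0.869) and St3gal2 (0.867), at 0.425 to 0.615 with group means removed. For Smad7 they were Phtf1 (0.712), Cdc27 (0.694), Pla1a (0.688), Camkk1 (0.682) and Ltbp4 (0.666), at 0.312 to 0.567 with group means removed.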

How the data were processed

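Left ventricle RNA of 24 rats was hybridised to Illumina rat bead arrays with 50-base probes, 1 array per animal. The deposited intensity of each probe is on a linear scale without scaling between arrays, and the authors exported it with BeadStudio 3, per the submitters' processing notes. A detection p-value accompanies each intensity, per the file headers. A second deposited table holds the authors' normalized intensity, used as an alternative. The method behind it is not stated.

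Intensities were background-corrected with neqc (offset 16, negative controls inferred from the detection p-values), quantile normalised and put on the log2 scale in R 4.3.3 with limma 3.58.1. The filter at detection p under 0.05 on 6 or more arrays kept 10540 of 22517 probes, and the brightest probe stood for a gene, which left 10392 genes. The limma model had the 4 group means and 20 residual degrees of freedom, and p-values were adjusted over all genes within each of 7 comparisons. Permutation tests of single members were exact. Correlations used 100000 permutations within groups. Promoter sequences and gene coordinates come from RefSeq tables of GRCr8.

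The members, gene lists and tests were chosen with earlier results of these data known. The text names the 10 members, of each pathway list the called genes (at most 6) and the 2 with the smallest p, and for each called member the 5 most like genes. The code was tested on simulated data. Alternatives covered background correction, normalisation, filter, probe choice, variance model, array weights, background batch, clock genes, arrays entering the fit and each array left out. The number of arrays limits the precision.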

Additional observations from a re-analysis of the deposited data

Results flagged for a closer look

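In 4 of the 32 combinations of a tested member and a group, 1 animal stood apart from the other 5 by more than Dixon's 95% critical value, where chance gives about 1 in 20. Tgfb1 was at 8.01 in ligated fat animal 5, with the others between 6.51 and 6.98. Tgfbr1 was at 7.19 in ligated fat animal 37, the only low-background array of that group, with the others between 6.26 and 6.55. Smad7 was at 8.26 in sham chow animal 7, with the others between 7.55 and 7.79. Fstl1 was at 14.23 in ligated fat animal 28, with the others between 12.88 and 13.22.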

How the results depend on the processing

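Members called for ligation on chow, 1 of 8, became 0 with median scaling and within either background batch and 2 with array weights; leaving out each array gave 1 to 5, the highest without ligated chow animal 21, and 2 without sham chow animals 7 or 15 or ligated fat animals 28 or 37. On saturated fat, 2 became 1 with median scaling, with probes detected on all 24 arrays (which leave out Gdf15), and with the clock index alone or with the background batch, 4 with array weights and without the 2 arrays least like their group (an alternative chosen after seeing the data), and 0 within either batch; leaving out each array gave 2 to 3. Averaged over diets, 5 became 2 with median scaling, 0 within high-background and 1 within low-background arrays; leaving out each array gave 4 to 6. Without the 2 least like arrays it was 4, as Smad7 was lost (adjusted p = 0.051), and with probes detected on all 24 arrays 4, as Gdf15 has no value.

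Pathway genes called, members included, were 4 on chow, 0 with median scaling and within either batch, 8 with array weights, and 4 to 11 with each array left out, the highest without ligated chow animal 21. On saturated fat they were 6, 2 with median scaling, 3 without a filter, 14 with array weights, 3 with the batch as a block, 1 within high-background and 0 within low-background arrays, 2 with the clock index alone or with the batch, 11 without the 2 least like arrays, and 3 to 9 with each array left out; 3 came without sham fat animals 11, 12, 17, 34 or 35 or ligated fat animals 25, 28, 37 or 39. Averaged over diets they were 14, 5 with median scaling, 1 within each batch, and 13 to 20 with each array left out. Correlated member pairs were 0, 1 with batch means removed, 1 without the 2 farthest arrays and 14 with median scaling. The cause of these changes was not tested.

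Median scaling moved the median of all genes to 0.16 for saturated fat in ligated hearts and 0.11 averaged over surgeries. No called difference of a member changed sign under any alternative. Of the single-member values, 2039 kept direction and side of the threshold, 25 lost and 15 gained a call, and 130 uncalled values changed sign. Dim probes limit Gdf15, Smad3 and Tgfbr2, and some values of Tgfb1 lay near the detection limit. Ltbp2, outside the members, was not detected on all 24 arrays. No paired analysis was possible because the animal numbers are not shared between groups.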
